A study of Mus musculus with 16 samples.

Results

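Potassium channel genes of the mouse eye were followed across 4 groups of arrays, in the neurosensory retina (NSR) and the isolated retinal pigment epithelium (RPE), with and without bright light. The members were all genes whose platform symbol starts with Kcn, apart from Kcnj10 and Kcnj13, each read from its brightest single-symbol transcript cluster by the mean over 16 arrays. This gave 90 of 19938 genes. The rule used no expression difference, but it was set with earlier results of these data known. All 8 mice were male Balb/cJ animals aged 10 weeks, an albino strain. In 4 mice, cool white fluorescent light of 10000 lux was given for 18 hours, and tissue was taken 4 hours after it ended. The other 4 mice were controls on a 12-hour light-dark cycle. By the replicate numbers in the titles, each mouse was taken to have given 1 NSR and 1 RPE array, with 4 arrays in each of the 4 groups. Bright light and the change of light schedule cannot be told apart. In bulk tissue, fewer cells of a type and less RNA per cell cannot be told apart either.

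Potassium channels set the resting voltage of a cell and end its electrical signals. In the dark, potassium leaves photoreceptors through channels of the inner segment while sodium and calcium enter the outer segment through cyclic nucleotide-gated channels, and light closes the latter. The RPE moves potassium between the space around the photoreceptor outer segments and the choroid. Channels are built from pore-forming subunits: voltage-gated Kv subunits, calcium- and sodium-activated subunits, inward rectifiers (Kir) and two-pore-domain subunits, which carry leak currents. Silent Kv subunits form no channel alone and modify others, and auxiliary subunits (Kcne, Kcnab, Kcnip and Kcnmb genes) change gating and traffic.

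Values are log2 expression, on which a difference of 1 is a 2-fold change, and array medians lay between 6.38 and 6.57. A gene was called at a limma adjusted p under 0.05, with Benjamini-Hochberg adjustment over all genes. The dissection matched the labels: the median of 9 rod markers was 12.18 to 12.27 in control NSR and 7.99 to 8.46 in control RPE, and that of 12 RPE markers 5.70 to 6.04 and 12.23 to 12.31. Rod markers were thus well below their retinal level in RPE but not absent. In the RPE 3 arrays stood apart. RPE control 2 had a lens marker median of 7.16, and the 3 other controls had 6.29 to 6.44. RPE light 2 had a corneal marker median of 8.60, and the 3 others of its group had 6.05 to 6.16. The rod marker median of RPE light 1 was 8.59, where the rest of its group had 7.38 to 7.81. Calls that changed when these 3 arrays were left out are given with each comparison. A mean below 5.63 puts a gene among the dimmest 25% of genes, where the height above background is unknown. By their mean over all arrays 18 members lay there, and 13 did so in each of the 4 groups.

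The comparison of RPE with NSR in control mice asked where the channels are expressed. Of the 90 members 59 differed, which is 65.6% against 55.0% of all genes. The direction was uneven: 43 members (47.8%, against 24.2% of all genes) were lower in RPE and 16 (17.8%, against 30.8%) were higher. The median log2 difference was -0.15 for the members and 0.04 for all genes. The split depends on scaling: with arrays centred on their median, 23 members were higher and 37 lower, the median of all genes moved to 0.19, and the share higher in RPE among all called genes moved from 56.0% to 72.2%. With quantile normalization the members split 24 to 38, the median was 0.15 and the share 66.4%. Of the 23 members that differed at least 2-fold (25.6%, against 16.4% of all genes), 22 were higher in NSR and 1, Kcnt2, in RPE. Without the 3 RPE arrays that stood apart, 55 members were called: Kcnd3os, Kcng2, Kcnj4, Kcnmb4os1 and Kcnn3 lost their call and Kcnd1 gained one.

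The retinal side was led by channels of voltage-gated type. Kcnh5, the subunit of an ether-a-go-go channel, read 9.28, 9.47, 9.33 and 9.43 in control NSR and 6.01, 5.57, 5.86 and 5.64 in control RPE. The groups lay far apart, a difference of -3.61 (SE 0.15, adjusted p = 5.44e-13) or 12.2-fold. Kcna5, a Kv1 subunit, read 9.38, 9.42, 9.33 and 9.24 in control NSR and 6.23, 5.98, 6.09 and 6.02 in control RPE, a 9.61-fold difference. Kcnma1, the pore of the large-conductance calcium-activated channel, stood at 8.95 ± 0.09 in control NSR and 5.75 ± 0.21 in control RPE (SD, n = 4), a 9.24-fold difference. Its other transcript cluster, at 3.73 in control NSR and 3.78 in control RPE, showed no such difference and was dim. Kcnip4, a calcium-binding subunit of Kv4 channels, was 7.10-fold higher in NSR, and Kcnv2, a silent subunit that joins Kv2 channels in the photoreceptor inner segment, 6.40-fold. Kcnv2 still read 6.94 to 7.24 in control RPE, whose rod marker median is given above, and whether rod RNA in the RPE samples made up this level was not tested.

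By family, all 7 Kv2 to Kv4 subunits had a negative difference, and 6 of them were called (median -1.18). Kcnc2 was 3.69-fold, Kcnd3 3.06-fold, Kcnb2 2.93-fold, Kcnc1 2.27-fold and Kcnd2 2.24-fold higher in NSR. In control RPE Kcnb2 and Kcnd2 were dim, like Kcnip1, Kcnj2 and Kcnrg below, which leaves the size of their folds uncertain. Of 16 auxiliary subunits 10 were lower in RPE and 1, Kcne4, was higher (median -0.59). Kcnip1 was 4.75-fold, Kcnab2 4.19-fold and Kcne2 3.64-fold higher in NSR. Of 13 inward rectifiers 7 were lower and 3 higher in RPE, and Kcnj2, a strong rectifier, was 2.33-fold higher in NSR. Of 8 Kv1 subunits 5 were lower and 1 higher, and of 7 EAG, ERG and ELK subunits 4 were lower and 1 higher. Of 10 silent subunits 3 were lower and 1 higher. The regulator Kcnrg, which hinders the assembly of Kv channels, was 4.09-fold higher in NSR. Of 8 calcium- and sodium-activated subunits 3 were higher and 3 lower (median -0.07). Of 14 two-pore-domain subunits 4 were higher and 2 lower in RPE, and their median of 0.06 was close to the 0.04 of all genes. No family was tested as a set.

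Fewer members were higher in the RPE. Kcnt2, a sodium-activated channel, read 4.59, 4.28, 4.52 and 4.45 in control NSR, within the dim range, and 7.38, 6.91, 6.70 and 7.11 in control RPE. Its difference of 2.57 (SE 0.13, adjusted p = 1.32e-11) came to 5.92-fold, a size that is uncertain because the NSR values are dim. Kcna2, the Kv1 subunit of axons and their terminals, was 1.88-fold higher in RPE. Kcnj8, the pore of the vascular ATP-sensitive channel and a pericyte marker, was 1.87-fold higher. The two-pore channels Kcnk5, which responds to alkaline pH, and Kcnk13, which microglia express, were 1.82-fold and 1.77-fold higher; Kcnk5 was dim in control NSR. The pericyte and smooth muscle marker median was 6.96 to 7.13 in control RPE and 6.21 to 6.52 in control NSR, and that of microglia and macrophages 7.06 to 7.76 and 5.97 to 6.04. Of 9 pericyte and smooth muscle markers 6 were called higher in control RPE and 1, Rgs5, lower. Of 11 microglia and macrophage markers 8 were called higher and 0 lower. Abcc9, the regulatory partner of Kcnj8, was called lower in control RPE, at 6.39 against 6.66 in control NSR. The part of these cells in the levels of Kcnj8 and Kcnk13 was not tested. Of the fixed list of retina and RPE channels, Kcnk2, Kcnmb1, Kcnq1, Kcns1, Kcnj16 and Kcnh1 were not called, with differences between -0.13 and 0.15. With median centring and with quantile normalization Kcnq1, Kcns1 and Kcnj16 were called higher in RPE.

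**Figure D1:**
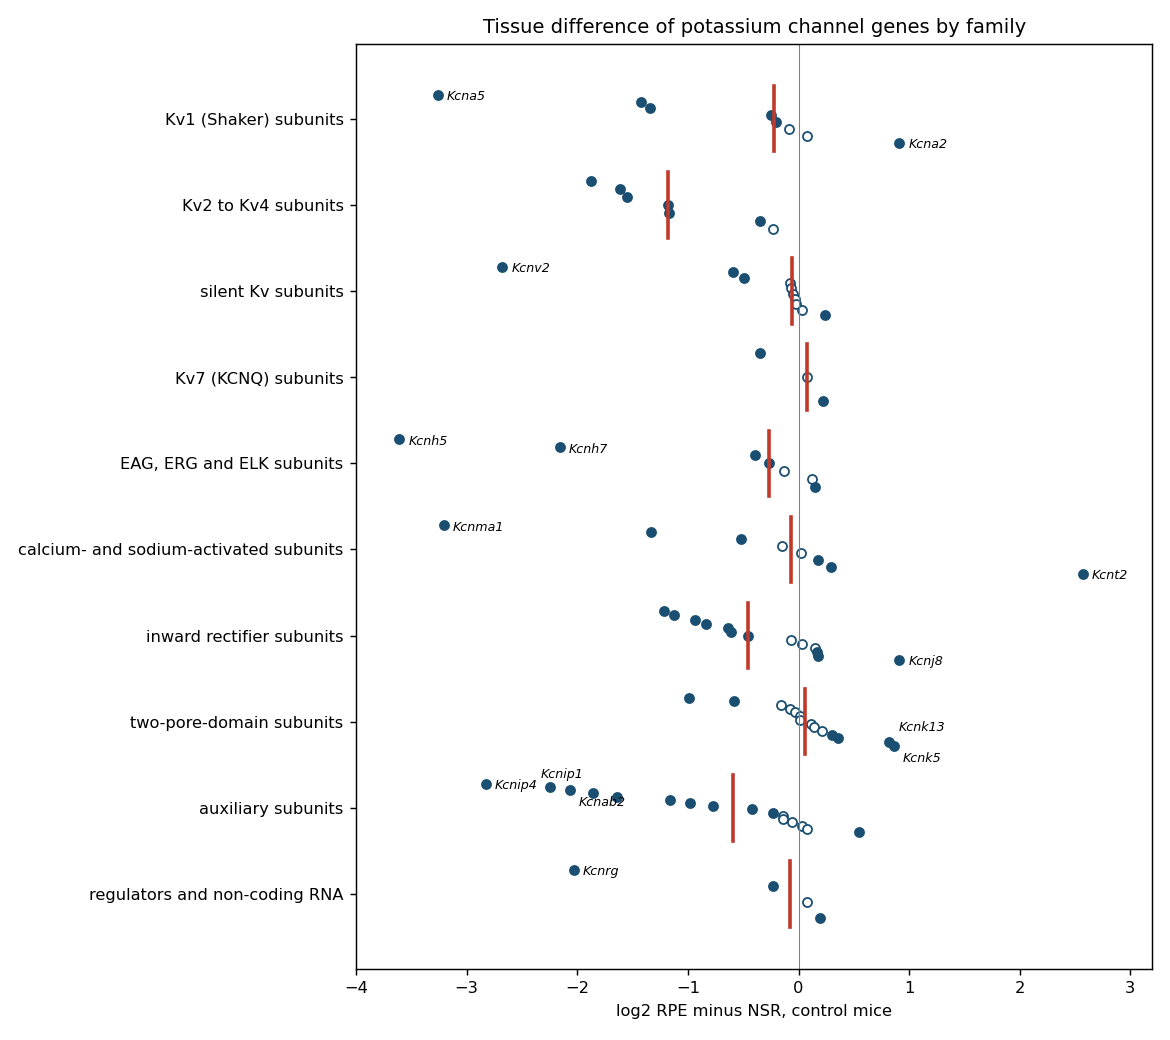
Log2 difference of RPE minus NSR in control mice (x axis) for 90 potassium channel genes by family (y axis). Filled points were called by limma, open points were not, and red bars mark family medians; 22 of the 23 differences of at least 2-fold lie on the NSR side, and Kcnt2 at 2.57 is the exception.

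In light-exposed mice 55 members differed between the tissues (61.1%, against 58.0% of all genes), 14 higher (15.6%, against 34.4%) and 41 lower (45.6%, against 23.6%) in RPE. With median centring the split was 27 to 37, and with quantile normalization 27 to 40. At least 2-fold differences were found in 21 members (23.3%, against 15.3%). In 50 members the tissues differed the same way in both treatments, and 0 members were called in opposite directions in the 2 treatments. The same was not counted over all genes, of which 55.0% differed between the tissues in control mice and 58.0% in light-exposed mice. Kcna2 and Kcnj8, higher in RPE in control mice, no longer differed by the test in light-exposed mice, at -0.17 (adjusted p = 0.112) and 0.15 (adjusted p = 0.27). Both depend on the setting. Kcnj8 was called higher in RPE with median centring (0.28, adjusted p = 0.0406) and with quantile normalization (0.28, adjusted p = 0.0359). Kcna2 was called lower in RPE with quantile normalization (-0.21, adjusted p = 0.0379), without RPE light 1 (-0.24, adjusted p = 0.0247) and without the 3 RPE arrays (-0.26, adjusted p = 0.0444), where it was still higher in RPE in control mice (0.94). Without those 3 arrays Kcnd1 and Kcnq3 lost their call in light-exposed mice, and Kcne3 and Kcns1 gained one. The excess of Kcnt2 in RPE was 0.80, against 2.57 in control mice.

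In the NSR, light changed 11 of the 90 members, which is 12.2% against 15.1% of all genes. It lowered 7 (7.78%, against 6.24%) and raised 4 (4.44%, against 8.87%). The median log2 difference was -0.04 for the members and -0.02 for all genes. With arrays centred on their median the split became 6 higher and 4 lower. The falls were led by Kcne2 and Kcnv2, and the rises by Kcnip3. Only Kcne2 changed at least 2-fold, which is 1.11% against 1.35% of all genes.

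Kcne2, a single-span auxiliary subunit that can join several Kv channels, read 9.09, 9.21, 9.25 and 9.09 in control NSR and 8.11, 8.20, 7.86 and 8.13 in light-exposed NSR. The groups did not overlap, and the fall was 2.12-fold (-1.09, SE 0.08, adjusted p = 2.89e-06). Kcnv2 read 9.75, 9.78, 9.77 and 9.68 in control NSR and 8.82, 8.68, 8.92 and 8.71 after light. All 4 light-exposed arrays were lower, by 1.95-fold (-0.96, SE 0.07, adjusted p = 2.01e-06). Kcnj14, an inward rectifier of the Kir2 group, read 8.16, 7.86, 7.94 and 8.23 in control NSR and 7.36, 7.24, 7.76 and 7.72 after light, groups that came close without overlapping. Its fall was 1.44-fold (-0.53, SE 0.13, adjusted p = 0.0148). Kcnab2, a cytosolic beta subunit of Kv1 channels, fell 1.35-fold from 9.01 ± 0.12 to 8.57 ± 0.02 (SD, n = 4; limma adjusted p = 0.00121).

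The photoreceptor markers moved in the same samples. All 9 rod markers measured were called lower in light-exposed NSR, with a median of 11.06 to 11.26 against 12.18 to 12.27 in control NSR. Of 8 cone markers 6 were lower and 1 was higher, and their median was 8.88 to 9.34 against 9.80 to 9.91. Of 9 Müller glia markers 5 were lower and 2 higher, and of 7 bipolar cell markers 4 were lower. None of 8 amacrine cell markers was called. The part of these cells in the falls of Kcne2, Kcnv2, Kcnj14 and Kcnab2 was not tested.

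Kcnip3, a calcium sensor that binds Kv4 channels and also acts as a transcriptional repressor, read 7.81, 7.93, 8.11 and 8.24 in control NSR and 8.44, 8.52, 9.02 and 8.61 after light. All light-exposed arrays were above all controls, a rise of 1.54-fold (0.62, SE 0.13, adjusted p = 0.00583). Kcnt2 read 4.59, 4.28, 4.52 and 4.45 in control NSR and 5.09, 4.78, 5.14 and 4.75 after light. The groups did not overlap, yet all 8 values lay in the dim range, so that the size of the rise of 0.48 (adjusted p = 0.00778) is uncertain. Kcnd2, a Kv4 subunit of fast-inactivating currents, read 6.63, 6.34, 6.69 and 6.61 in control NSR and 6.65, 7.07, 7.40 and 7.03 after light. One light-exposed array lay within the control range, and the adjusted p was 0.0374. Kcnh7, an ERG subunit, rose from 6.61 ± 0.10 to 6.93 ± 0.17 (SD, n = 4; limma adjusted p = 0.0365), and its groups overlapped too.

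Of the 11 calls 6 held with any single array left out: Kcne2, Kcnv2, Kcnj14, Kcnab2, Kcnip3 and Kcnt2. The other 5 were close to the threshold. Kcnd2 kept its call only without NSR light 1, and Kcne3 likewise. Kcne1l kept it only without NSR control 2, Kcnk12 only without NSR light 2, and Kcnh7 only without NSR control 2 or NSR light 4. Where their calls were lost, the adjusted p of these genes lay between 0.0507 and 0.112. The falls of Kcne1l and Kcne3, both Kcne-type auxiliary subunits, and of Kcnk12, a two-pore-domain subunit, were small, at -0.24, -0.26 and -0.23.

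**Figure D2:**
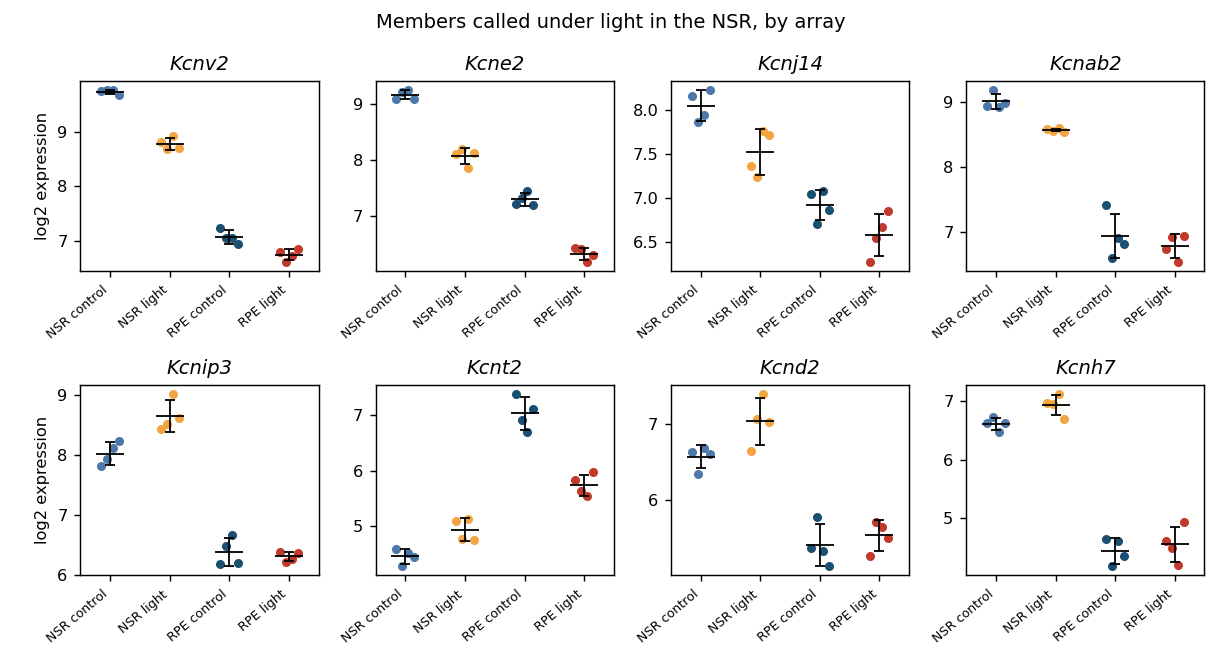
Log2 expression (y axis) of 8 of the 11 members called under light in the NSR, by group (x axis). Points are arrays, and bars are means ± SD of 4 arrays; Kcne2 and Kcnv2 fall by about 1 log2 unit in the NSR, and Kcnt2 rises in the NSR while it falls in the RPE.

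In the RPE, light changed 9 members, which is 10.0% against 17.6% of all genes. It lowered 7 (7.78%, against 8.53%) and raised 2 (2.22%, against 9.08%). The median log2 difference was -0.03 for the members and -0.01 for all genes. Kcnt2 and Kcna2 fell at least 2-fold, which is 2.22% of members against 1.48% of all genes. The light-exposed and control arrays did not overlap in any of the 9. These 9 were picked by a test on the same arrays, so this adds no support, and overlap was not counted over all genes.

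Kcnt2 read 7.38, 6.91, 6.70 and 7.11 in control RPE and 5.83, 5.63, 5.54 and 5.97 after light. All light-exposed arrays were lower, by 2.43-fold (-1.28, SE 0.15, adjusted p = 0.000266). The light-exposed values lay close to the dim bound of 5.63, which leaves the size of this fall uncertain. Kcna2 read 9.45, 9.38, 9.53 and 9.47 in control RPE and 8.59, 8.34, 8.08 and 8.51 after light. It fell 2.11-fold (-1.08, SE 0.10, adjusted p = 0.000108), to about its level in the NSR. Its other transcript cluster fell less, by 0.39. Kcne2 read 7.22, 7.32, 7.45 and 7.20 in control RPE and 6.43, 6.41, 6.18 and 6.31 after light. The fall of 1.96-fold (-0.97, SE 0.08, adjusted p = 5.21e-05) took place at a level well below that of the NSR. Kcna4, a Kv1 subunit of inactivating currents, read 6.78, 6.46, 6.44 and 6.30 in control RPE and 5.90, 5.46, 5.86 and 5.66 after light. It fell 1.72-fold (-0.78, SE 0.12, adjusted p = 0.00172).

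The promoter windows of these 4 genes are shown because they had the largest falls in the RPE. Each holds 250 bases before and 50 after the transcript start, from RefSeq on GRCm38.p6, all on the plus strand, with CG pairs in capitals. The windows lie at chr1:140245468-140245767 (Kcnt2), chr3:107101317-107101616 (Kcna2), chr2:107290339-107290638 (Kcna4) and chr16:92292139-92292438 (Kcne2, one of its 2 starts).
Kcnt2: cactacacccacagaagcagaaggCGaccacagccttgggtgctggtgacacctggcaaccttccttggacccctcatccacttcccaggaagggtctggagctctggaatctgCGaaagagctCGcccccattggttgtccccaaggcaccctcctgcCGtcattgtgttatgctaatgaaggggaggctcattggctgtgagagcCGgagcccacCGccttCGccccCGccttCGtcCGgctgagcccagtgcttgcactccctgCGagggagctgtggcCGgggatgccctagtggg
Kcna2: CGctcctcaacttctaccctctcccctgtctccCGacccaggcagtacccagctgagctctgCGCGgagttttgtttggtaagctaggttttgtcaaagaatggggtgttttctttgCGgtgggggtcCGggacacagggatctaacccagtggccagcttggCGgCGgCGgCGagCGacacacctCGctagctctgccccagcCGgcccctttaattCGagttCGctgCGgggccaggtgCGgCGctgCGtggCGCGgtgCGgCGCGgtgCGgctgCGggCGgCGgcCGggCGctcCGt
Kcna4: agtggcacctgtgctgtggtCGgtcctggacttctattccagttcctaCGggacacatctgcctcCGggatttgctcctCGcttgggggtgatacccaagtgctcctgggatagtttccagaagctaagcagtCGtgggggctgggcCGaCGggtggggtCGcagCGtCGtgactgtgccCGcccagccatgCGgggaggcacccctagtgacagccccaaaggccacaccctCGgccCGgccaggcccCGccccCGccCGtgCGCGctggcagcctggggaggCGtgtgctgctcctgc
Kcne2: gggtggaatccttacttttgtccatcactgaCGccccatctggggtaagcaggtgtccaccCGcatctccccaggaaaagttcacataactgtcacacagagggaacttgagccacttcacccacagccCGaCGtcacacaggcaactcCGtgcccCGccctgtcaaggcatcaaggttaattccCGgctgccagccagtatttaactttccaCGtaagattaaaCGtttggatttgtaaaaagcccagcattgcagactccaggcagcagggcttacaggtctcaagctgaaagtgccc
The windows of Kcna2 and Kcna4 are rich in CG pairs, with 31 and 20, and 10.6% and 26.5% of all windows hold at least as many. Kcnt2 has 12 and Kcne2 has 9, against medians of 7 over 32851 windows of all genes and 9 over 93 member windows. These 93 windows came from 68 of the 90 members. Any member windows on the chromosome of Kcnn2 were left out of this set and of the member motif shares below. The windows of all genes kept that chromosome. The 4 genes that fell together differ widely in their number of CG pairs. The motifs TAATCC (the core bound by OTX and CRX), CATGTG (M-box core), CACGTG (E-box) and TGACTCA (AP-1) were searched on both strands, and none contains another. TAATCC was in 3.23% of member windows against 7.06% of all windows (Kcng4, Kcnj9 and Kcnrg), and CATGTG in 2.15% against 14.2% (Kcnab2 and Kcnj1). CACGTG was in 7.53% against 7.15%, and TGACTCA in 2.15% against 5.2% (Kcnip3 and Kcnk2). None of the 4 motifs was in the windows printed here.

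The remaining falls in the RPE were smaller. Kcnj8 read 7.69, 7.69, 8.04 and 8.10 in control RPE and 7.07, 7.21, 7.31 and 7.52 after light, a 1.52-fold fall (-0.60, SE 0.12, adjusted p = 0.00749). Its regulatory partner Abcc9, the sulfonylurea receptor of vascular ATP-sensitive channels, was not called (0.21, adjusted p = 0.146). The two-pore channel Kcnk13 read 7.20, 6.94, 6.79 and 7.06 in control RPE and 6.46, 6.54, 6.66 and 6.72 after light, a 1.33-fold fall (adjusted p = 0.015). Kcnv2 fell 1.25-fold, from 7.07 ± 0.13 to 6.74 ± 0.10 (SD, n = 4; limma adjusted p = 0.0193), and its call was lost without RPE light 2 (adjusted p = 0.0542). When the 3 arrays named above (RPE control 2 and RPE light 1 and 2) were left out together, 6 of the 9 calls held. Those of Kcnj8 (adjusted p = 0.0626), Kcnk13 (0.172) and Kcnv2 (0.164) did not.

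Only Kcnj15 and Kcnn3 rose in the RPE. Kcnj15, an inward rectifier of the Kir4 group, read 5.97, 5.97, 6.12 and 6.08 in control RPE and 6.47, 6.64, 6.64 and 6.58 after light. The rise was 1.46-fold (0.55, SE 0.07, adjusted p = 0.000412). Kcnn3, a small-conductance calcium-activated channel, read 6.87, 6.86, 6.97 and 6.75 in control RPE and 7.22, 7.31, 7.48 and 7.45 after light. The rise was 1.42-fold (0.50, SE 0.08, adjusted p = 0.00162). In the 8 NSR arrays Kcnj15 lay between 5.77 and 5.96 and Kcnn3 between 6.58 and 6.85, below every light-exposed RPE array.

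Cell markers in the RPE samples moved as well. Of 12 RPE markers 8 were called lower after light, and their median was 11.57 to 11.88 against 12.23 to 12.31 in control RPE. Of 9 pericyte and smooth muscle markers 3 were lower (Acta2, Pdgfrb and Des), with a median of 6.87 to 6.99 against 6.96 to 7.13. Of 7 melanocyte markers 5 were lower, with a median of 9.19 to 9.61 against 9.78 to 9.99. Of 11 microglia and macrophage markers 2 were higher and 1 was lower, with a median of 7.14 to 7.87 against 7.06 to 7.76. None of the 9 rod markers was called, and their median was 7.38 to 8.59 against 7.99 to 8.46. The part of these cells in the member changes was not tested.

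**Figure D3:**
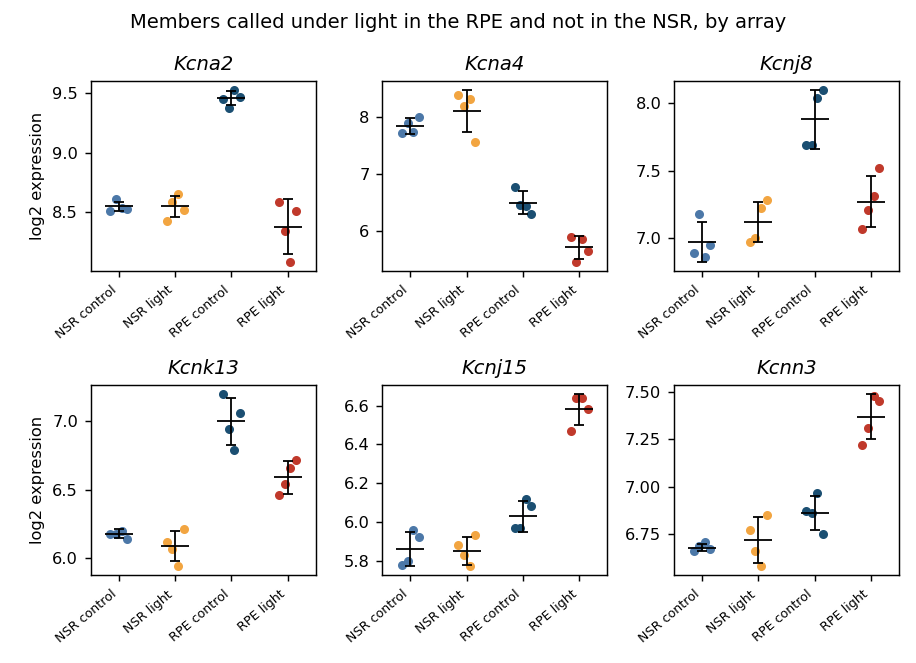
Log2 expression (y axis) by group (x axis) of the 6 members called under light in the RPE and not in the NSR. Points are arrays, and bars are means ± SD of 4 arrays; Kcna2 in light-exposed RPE reaches its NSR level near 8.5, and Kcnj15 and Kcnn3 are highest in light-exposed RPE.

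Whether the response to light differed between the tissues was tested as RPE response minus NSR response. It differed in 9 members, which is 10.0% against 13.2% of all genes, 6 lower (6.67%, against 8.05%) and 3 higher (3.33%, against 5.16%). The difference was at least 2-fold in 3 members (3.33%, against 2.17%). Kcnt2 moved in opposite directions, at 0.48 in the NSR and -1.28 in the RPE, a difference of -1.77 (SE 0.19, adjusted p = 6.62e-06). The size of this difference is uncertain because the NSR values of Kcnt2 are dim. Kcna2 had a response of 0.00 (SE 0.07) in the NSR and fell in the RPE, a difference of -1.08 (SE 0.12, adjusted p = 1.26e-05). For Kcna4 the difference was -1.05 (adjusted p = 0.00276) and for Kcnj8 -0.75 (adjusted p = 0.0046); in the NSR their responses of 0.27 and 0.15 were not called. Kcnip3 differed by -0.69 (adjusted p = 0.0168), its rise being that of the NSR, though not without the 3 RPE arrays named above (adjusted p = 0.0796).

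The fall of Kcnv2 was smaller in the RPE, a difference of 0.63 (SE 0.11, adjusted p = 0.000459). Kcnj15 and Kcnn3 differed by 0.56 (adjusted p = 0.000406) and 0.47 (adjusted p = 0.00456), their NSR responses being -0.01 and 0.03. Kcnh1, the founding EAG subunit, differed by -0.37 (adjusted p = 0.0294) without being called in either tissue. This call was lost with the mouse as a block (adjusted p = 0.0557) and without any one of NSR control 4, NSR light 3, RPE control 1, RPE control 4 or RPE light 2 (adjusted p between 0.0604 and 0.0658). With median centring and with quantile normalization the response of Kcnh1 in the NSR was itself called. Kcne2 fell in both tissues, and the difference between its falls was 0.12 (SE 0.12, adjusted p = 0.592). For Kcnk13 the difference of -0.32 did not pass the test (adjusted p = 0.0923). Without the 3 RPE arrays the call of Kcnh1 was lost too (adjusted p = 0.0896), and Kcnh5 gained one (-0.52, adjusted p = 0.0396).

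**Figure D4:**
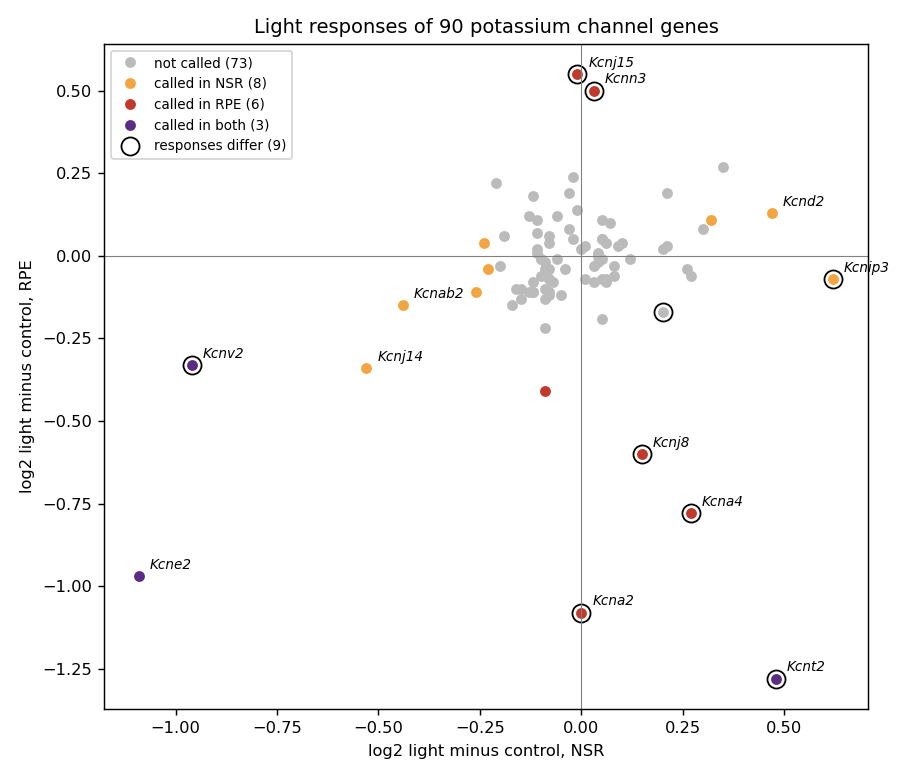
Log2 light response in the NSR (x axis) against that in the RPE (y axis) for 90 potassium channel genes. Colours mark the tissue in which a response was called and rings the 9 members whose responses differed; Kcne2 lies low in both tissues, and Kcnt2 rises in the NSR and falls in the RPE.

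Over both tissues 17 members were called under light, 3 of them in both (Kcne2, Kcnv2 and Kcnt2), and 73 in neither. How many of all genes were called in both tissues or in neither was not counted. The 79 members not called in the NSR had differences between -0.21 and 0.35, and 68 of them lay within 0.2 of no change. The 81 not called in the RPE lay between -0.34 and 0.27, with 76 of them within 0.2. By family, no Kv1, Kv7 or regulator gene was called in the NSR (against 15.1% of all genes). In the RPE no Kv2 to Kv4, Kv7, EAG-type or regulator gene was called (against 17.6% of all genes). These families hold only 3 to 8 genes each, and none was tested as a set. Of the 16 auxiliary subunits 5 were called in the NSR (against 15.1% of all genes), among them Kcne1l and Kcne3, whose calls were lost in 7 of 8 fits that left out 1 array, and 1 was called in the RPE (against 17.6% of all genes). The highly expressed retinal channels Kcna5 (9.34 in control and 9.34 in light-exposed NSR) and Kcnma1 (8.95 and 9.05) were not called. A value that misses the threshold does not show that a gene was unchanged.

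Among 17 partners of potassium channels, 4 fell in the RPE (against 8.53% of all genes) and 0 rose (against 9.08%). The list was chosen with earlier results of these data known and was not tested as a set. Their median difference was -0.04, against -0.01 for all genes. Adam22, a membrane receptor found with Kv1 channels, read 7.36, 7.24, 7.48 and 7.34 in control RPE and 6.17, 6.08, 5.91 and 5.60 after light. The fall was 2.67-fold (-1.41, SE 0.12, adjusted p = 4.93e-05), and its response differed from that of the NSR by -1.53 (adjusted p = 6.9e-07). Lgi1, the secreted ligand of Adam22, read 10.08, 10.23, 10.23 and 10.07 in control RPE and 9.66, 9.26, 8.71 and 9.56 after light. It fell 1.81-fold (-0.85, SE 0.18, adjusted p = 0.00792) from a level 12.2-fold above that of control NSR. Cntnap2, which clusters Kv1 channels on axons, fell by 0.40 (SE 0.06, adjusted p = 0.00155). Akap5, an anchor of kinases at channels, had a difference of -0.42 (adjusted p = 0.0449), with overlapping groups; its call was lost in 6 of the 8 fits that left out 1 RPE array. Cntnap2 and Akap5 were named after their values had been seen. The other 13 partners were not called in the RPE, nor were 6 of the 8 Kv1 subunits, whose median difference was -0.02. In the NSR 2 partners were called (against 15.1% of all genes), Gnb1 at -0.39 and Ank3 at 0.23.

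**Figure D5:**
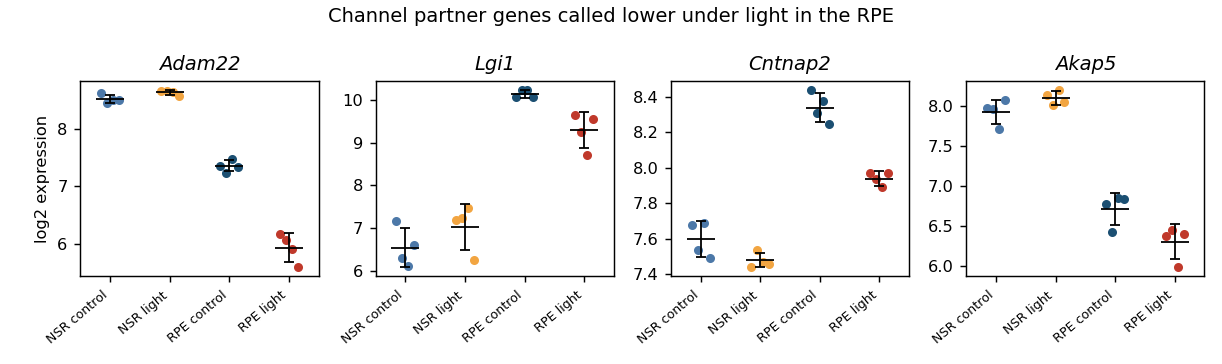
Log2 expression (y axis) by group (x axis) of the 4 partner genes called lower under light in the RPE. Points are arrays, and bars are means ± SD of 4 arrays; Adam22 falls to 5.60 to 6.17 in light-exposed RPE while its NSR values stay between 8.45 and 8.65.

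Other potassium handling genes were counted beside the channels. For comparison, light raised 8.87% of the whole gene set in the NSR and 9.08% in the RPE. It lowered 6.24% in the NSR and 8.53% in the RPE. The lists below hold only 9 or 10 genes each, and none was tested as a set against these shares. Of 9 genes of the sodium-potassium pump, which supplies the gradient the channels use, 1 rose and 2 fell in the NSR, and 4 rose and 1 fell in the RPE. Fxyd5, a pump regulator, rose by 0.94 in the NSR (adjusted p = 0.000162), and Fxyd6 fell by 0.32. In the RPE Fxyd3 rose by 0.69 (adjusted p = 0.000187) and the pump beta subunit Atp1b3 by 0.64 (adjusted p = 0.00952). Of 10 potassium-coupled transporters, 2 rose and 2 fell in the NSR, and 1 rose and 2 fell in the RPE. Slc12a2, the sodium-potassium-chloride cotransporter, rose by 0.33 in the NSR and 0.73 in the RPE. Slc24a1, the exchanger of rod outer segments, fell by 0.65 and by 0.77. Of 9 HCN and cyclic nucleotide-gated channels 2 fell in the NSR, Cngb3 of cones by 1.05 and Cnga1 of rods by 0.51. Cngb3 was also lower in the RPE, by -0.98 (adjusted p = 0.0109), a call lost without the 3 RPE arrays named above (adjusted p = 0.17). Its mean of 5.34 in light-exposed RPE was dim, which leaves the size of that fall uncertain. In the RPE samples 3 of 8 cone markers were lower after light (Opn1sw, Gnat2 and Pde6c) and 1, Gnb3, was higher, with a cone marker median of 6.91 to 7.51 against 7.27 to 7.55 in control RPE, and no rod marker was called. In control mice Slc24a1 stood at 11.09 in RPE and 11.02 in NSR, and Cngb3 at 6.32 and 8.66. The rod marker median there was 7.99 to 8.46 in RPE and 12.18 to 12.27 in NSR. The part of photoreceptor RNA in the RPE values of Slc24a1 and Cngb3 was not tested.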

How the data were processed

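RNA of NSR and isolated RPE was hybridised to 16 Affymetrix Mouse Gene 1.0 ST arrays of 1 colour. What the authors deposited are log2 values of 35556 transcript clusters; the submitters' processing notes name RMA and Partek 6.6. The log2 scale was read from the values (2.20 to 13.84), and they carry no detection measure. Depth does not apply to arrays, and the number of mice limits precision.

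By the platform annotation, 1 gene symbol belonged to 21789 clusters, of which 21698 matched RefSeq by gene identifier; 1621 clusters had several symbols and 12146 had none, and these were not used. Groups came from the labels. NSR and RPE arrays were paired by mouse through the replicate number that their titles share. Deviations of the 2 arrays of a mouse from their group means correlated between -0.011 and 0.053. Arrays of different animals with the same number reached -0.017 to 0.066, so the values themselves do not show the pairing. P-values measure the spread between mice.

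Models were fitted with lmFit and eBayes of limma 3.58.1 (R 4.3.3), and summaries and plots were made with pandas 2.3.3 and matplotlib 3.10.9 (Python 3.11.15). Light was compared within each tissue over 8 arrays, and the tissues and the difference of responses over 16 arrays with 4 group means. The fits were tested on simulated data.

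The members and lists were chosen with earlier results of these data known. Named were a fixed list of 23 measured channels, the 10 largest called rises and falls per tissue, the 12 largest called tissue differences each way, the 10 largest called differences of response, and for each related list the 2 largest called changes. Others, and the use of called members in further comparisons, were chosen after values were seen. Alternatives were other scaling, priors, array weights, cluster handling, a filter on dim genes, a 2-fold threshold, blocks and arrays left out.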

Additional observations from a re-analysis of the deposited data

Results flagged for a closer look

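In 180 sets of 4 arrays, the named members in each of the 4 groups, 4 sets held 1 array far from the other 3 by Dixon's rule, which chance alone meets in about 1 in 20 sets. Kcna3 stood at 6.91 in NSR control 1 against 7.10 to 7.12 in the other control NSR arrays. The antisense gene Kcnd3os stood at 6.89 in NSR control 4 against 7.05 to 7.07, and at 7.04 in RPE light 1 against 7.21 to 7.24. Kcnn4 stood at 6.11 in RPE light 2, an array with high corneal markers, against 6.54 to 6.61. None of these genes was called under light.

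Responses to light that differed between the tissues, as RPE minus NSR and by limma at an adjusted p under 0.05, were -1.77 for Kcnt2, -1.08 for Kcna2, -1.05 for Kcna4, -0.75 for Kcnj8, -0.69 for Kcnip3, -0.37 for Kcnh1, 0.47 for Kcnn3, 0.56 for Kcnj15 and 0.63 for Kcnv2.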

How the results depend on the processing

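No named value reversed its direction while called. Of 205 named values 114 were called. Apart from the 2-fold threshold, 81 of these kept their call under every alternative in which the gene was fitted. A gene removed by the filter on dim genes was not fitted there, and this was not counted as a lost call. Of the 91 uncalled values 38 changed sign in some setting. At a 2-fold threshold, members called fell to 1 in the NSR (269 of all genes), 2 in the RPE (295), 23 between the tissues in control mice (3275), 21 in light-exposed mice (3041) and 3 for the difference of responses (433). With single arrays left out, the counts of members and of all genes were 6 to 11 and 2367 to 2920 in the NSR, 8 to 10 and 2913 to 3232 in the RPE, 50 to 59 and 10442 to 11031 between tissues in control mice, 52 to 56 and 10986 to 11570 in light-exposed mice, and 8 to 10 and 2350 to 2599 for the difference of responses. In the NSR the 5 fits with 6 or 7 calls left out NSR control 1, 3 or 4, or NSR light 2 or 3. When the RPE arrays control 2, light 1 and light 2 were all left out, 2056 genes were called in the RPE.

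Light-exposed and control mice share replicate numbers but are different animals, and same-numbered arrays of a tissue deviated from their group means with correlations of -0.017 to 0.066. With the replicate block the NSR count was 7 members (Kcne1l, Kcne3, Kcnh7 and Kcnk12 were lost). With the mouse as a block, 53 members differed between tissues in control mice, 52 in light-exposed mice and 8 in their responses. How far signals of the dimmest 25% of genes stood above background is unknown.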
